A study of Mus musculus with 6 samples.

Results

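Chromatin accessibility in mouse kidney was examined at the 8 genes that write, copy and remove DNA methylation, namely Dnmt1, Dnmt3a, Dnmt3b, Dnmt3l, Uhrf1, Tet1, Tet2 and Tet3. The genes were chosen by name. An accessible interval was counted for a gene where it overlapped the stretch from 3 kb upstream of the gene start to the gene end in the GENCODE M39 annotation of GRCm39, the assembly also called mm39. This rule gave 166 intervals out of 279569 in the whole peak list. They held 44 intervals at Dnmt3a, 37 at Tet3, 34 at Tet2, 16 at Tet1, 14 at Dnmt1, 10 at Uhrf1, 6 at Dnmt3b and 5 at Dnmt3l.

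ATAC-seq, in which a transposase cuts and tags open DNA, was run on nuclei from the kidney cortex. The mapped libraries were 3 labelled WT and 3 labelled as a tubule-specific Acly knockout (Acly cKO), all under the label Control. By the methods, the knockout mice were Acly fl/fl;Ksp-Cre and their controls were Acly fl/fl littermates that lacked Cre, so both groups carried the floxed allele. Ksp-Cre recombines in the epithelium of several tubule segments, and the other kidney cells keep Acly. The age of these mice is not given in the labels. WT libraries came from batches 1 and 2 and Acly cKO libraries from batches 4 and 5, and a difference between batches cannot be told apart from one between genotypes.

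The deposited peak list is a single call that, by its peak names, pools all ATAC-seq libraries. The files do not say which libraries those were, and WT libraries that the authors had deposited earlier may be among them. No value in it belongs to a library, a genotype or a replicate. The 2 genotypes were therefore not compared, no value below has a replicate error, no test was run, and the depth of single libraries is unknown. All values are those of this pool. Each interval took the fold enrichment over the background set by the peak caller, and the −log10 q, of its highest summit, where a summit is a local maximum of the cut signal. A high fold means that more transposase cuts were seen there than that background predicts. It does not show whether the gene was transcribed, and in whole cortex a low fold in many cells cannot be told from a high fold in few cells.

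DNA methylation in mammals sits mainly on the cytosine of CG pairs. DNMT3A and DNMT3B place new methyl groups, and DNMT3L, which has no catalytic activity of its own, stimulates them in germ cells and early embryos. After replication UHRF1 binds CG sites that carry a methyl group on the old strand alone and brings in DNMT1, which copies the mark onto the new strand. TET1, TET2 and TET3 oxidize 5-methylcytosine in a reaction that uses alpha-ketoglutarate, and base excision repair or replication then removes the oxidized base. Promoters dense in CG pairs, called CpG islands, are usually free of methylation and open in most tissues.

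Marker genes gave a limited check of the tissue. All 11 marker genes of the tubule segments had an interval within 1 kb of a start, as did 77.9% of all protein-coding genes, and values ran from 4.19-fold at Aqp2, the vasopressin-regulated water channel of the collecting duct, to 38.2-fold at Slc12a3, the sodium-chloride cotransporter of the distal tubule. The Slc12a3 value lay at another start than the canonical one, which reached 8.38-fold. The 3 podocyte markers ranged from 3.54-fold at Nphs1 to 9.76-fold at Wt1. The 3 endothelial markers ranged from 2.68-fold at Pecam1 to 8.64-fold at Kdr. Stromal markers reached 5.63-fold at Pdgfrb and 10.9-fold at Col1a1. Of the 3 immune markers, Cd3e had no interval at a start, Ptprc reached 1.96-fold and Cd68 reached 31.2-fold. Of 6 genes of other organs, 5 had an interval at a start, from 2.49-fold at Neurod1, 2.95-fold at Alb and 4.78-fold at Myh6 to 8.05-fold at Gfap, and Myod1 had none. The Gfap value lay at another start than the canonical one, which reached 1.96-fold. Myh6 had no interval at its canonical start. Of the 3 germ line markers, Ddx4 had no interval, Sycp3 reached 5.17-fold and Dazl reached 37.1-fold. A promoter interval alone therefore did not separate kidney genes from others.

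The sequences that carry the main pattern are printed here, 5′ to 3′ on the strand of the gene, from GRCm39, in lower case with each CG pair in capitals. They include no annotated exon of a protein-coding gene. The first set lies at starts that were accessible, and consists of 120 bases directly upstream of a start or of 121 bases centred on the summit where this is stated. Where starts lie close together, the window is that upstream of the first of them, which can lie well before the canonical start.
Tet3, summit at the canonical start (chr6:83433520-83433640, minus strand): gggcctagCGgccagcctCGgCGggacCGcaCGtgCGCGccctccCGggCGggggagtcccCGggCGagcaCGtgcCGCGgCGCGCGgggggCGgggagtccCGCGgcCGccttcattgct
Tet3, upstream of the start of the shorter form (chr6:83418661-83418780, minus strand): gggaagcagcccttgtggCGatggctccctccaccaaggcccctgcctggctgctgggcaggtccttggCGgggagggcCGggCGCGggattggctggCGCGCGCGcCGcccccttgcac
Uhrf1, upstream of the first start of the group that holds the summit (chr17:56610844-56610963, plus strand): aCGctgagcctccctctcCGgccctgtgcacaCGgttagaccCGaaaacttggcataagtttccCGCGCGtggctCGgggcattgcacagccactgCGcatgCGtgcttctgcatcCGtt
Dnmt3a, summit at the canonical promoter (chr12:3856337-3856457, plus strand): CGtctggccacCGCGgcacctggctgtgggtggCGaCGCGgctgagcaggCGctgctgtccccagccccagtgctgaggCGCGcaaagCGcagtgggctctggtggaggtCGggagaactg
Dnmt3a, upstream of the start of the short form (chr12:3941608-3941727, plus strand): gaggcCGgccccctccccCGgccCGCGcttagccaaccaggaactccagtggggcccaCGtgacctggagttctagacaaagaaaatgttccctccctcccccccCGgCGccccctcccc
Tet2, upstream of the first start of the group with the canonical start (chr3:133250901-133251020, minus strand): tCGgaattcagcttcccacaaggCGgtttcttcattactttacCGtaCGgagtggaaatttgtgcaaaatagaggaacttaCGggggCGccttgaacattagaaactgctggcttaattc
Tet1, upstream of the accessible start (chr10:62723292-62723411, minus strand): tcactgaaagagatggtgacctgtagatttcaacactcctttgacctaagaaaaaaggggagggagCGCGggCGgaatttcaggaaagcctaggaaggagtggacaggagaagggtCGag
Dnmt3b, upstream of the first start of the group with the canonical start (chr2:153490741-153490860, plus strand): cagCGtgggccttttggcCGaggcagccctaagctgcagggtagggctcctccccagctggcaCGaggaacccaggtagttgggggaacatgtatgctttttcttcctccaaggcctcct
Dnmt1, upstream of the first start of the group with the canonical start (chr9:20864575-20864694, minus strand): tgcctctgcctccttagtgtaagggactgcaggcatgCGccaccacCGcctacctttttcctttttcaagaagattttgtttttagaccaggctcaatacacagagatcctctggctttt
These windows held from 2 CG pairs at Dnmt1 to 21 at the Tet3 summit. At the Dnmt3a promoter the summit is printed, and the 120 bases upstream of the first start there held 1 CG pair. The start that follows the Dnmt1 window lies at −299 bp relative to the canonical start and that after the Dnmt3b window at −462 bp, and neither covers the summit. The 201 bp around the Dnmt1 summit held 13 CG pairs and those around the Dnmt3b summit 33.

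The next set consists of 120 bases upstream of annotated starts of protein-coding transcripts with no interval within 1 kb, shown because transcripts of both kinds are known from germ cells.
Dnmt1, upstream of the start of the shorter form (chr9:20871185-20871304, minus strand): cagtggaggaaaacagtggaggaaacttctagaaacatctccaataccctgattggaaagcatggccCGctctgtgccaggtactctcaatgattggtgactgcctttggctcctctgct
Dnmt3l, upstream of the canonical start (chr10:77885556-77885675, plus strand): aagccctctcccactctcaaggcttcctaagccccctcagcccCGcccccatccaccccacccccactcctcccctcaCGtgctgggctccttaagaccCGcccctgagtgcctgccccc
The last set consists of 121 bases around the summits of strong intervals inside introns, away from every annotated start of the gene.
Tet3, intron 3 (chr6:83399383-83399503, minus strand): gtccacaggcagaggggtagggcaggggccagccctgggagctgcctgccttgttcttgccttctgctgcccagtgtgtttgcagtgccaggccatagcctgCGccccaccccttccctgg
Dnmt3a, intron 3 (chr12:3906259-3906379, plus strand): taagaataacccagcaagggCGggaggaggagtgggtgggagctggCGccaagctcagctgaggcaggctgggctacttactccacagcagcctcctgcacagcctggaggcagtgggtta
Tet1, intron 2 (chr10:62690934-62691054, minus strand): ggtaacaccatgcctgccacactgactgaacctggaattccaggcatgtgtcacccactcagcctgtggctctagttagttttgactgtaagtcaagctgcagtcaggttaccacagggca
Dnmt1, intron 1 (chr9:20854789-20854909, minus strand): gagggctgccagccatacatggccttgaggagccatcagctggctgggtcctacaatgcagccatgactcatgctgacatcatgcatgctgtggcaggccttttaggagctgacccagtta
Tet2, intron 1 (chr3:133247937-133248057, minus strand): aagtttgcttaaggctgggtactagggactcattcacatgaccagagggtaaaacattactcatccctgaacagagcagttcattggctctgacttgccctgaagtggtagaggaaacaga
Tet1, intron 5 (chr10:62659334-62659454, minus strand): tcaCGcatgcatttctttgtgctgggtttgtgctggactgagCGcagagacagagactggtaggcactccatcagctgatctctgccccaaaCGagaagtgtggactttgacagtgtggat
These windows held between 0 and 3 CG pairs each, and those of Dnmt1 intron 1, Tet1 intron 2 and Tet2 intron 1 held none. They are examples, and a stronger summit in intron 2 of Tet1, at 14.5-fold, held 1 CG pair in its 121 bases. Of all 26 intervals of at least 5-fold away from starts, 2 held no CG pair in the 201 bp around the summit. Over the whole list, 11.5% of intervals of that strength away from protein-coding starts held none.

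Over the 8 genes, the strongest interval ranged from 57.2-fold at Dnmt1 to 8.05-fold at Dnmt3l. In between, in order, came Tet2 at 53.8-fold, Uhrf1 at 48.0-fold, Tet3 at 46.3-fold, Dnmt3a at 45.0-fold, Tet1 at 18.3-fold and Dnmt3b at 17.9-fold. These values fell into a group of 5 genes from 45.0-fold upwards, and a group of 3 below 20-fold. The value of Dnmt3l is that of an interval at the start of the neighbouring gene Aire, and its next interval reached 2.88-fold. Among the 18102 protein-coding genes with an interval, the strongest interval had a median of 30.8-fold, with a 25th percentile of 13.7-fold and a 75th of 49.2-fold. Dnmt1 and Tet2 lay above that 75th percentile, Dnmt3l lay below the 25th, and the other 5 lay between them. With no replicate values, neighbours in this order such as Dnmt3b and Tet1 could not be separated.

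**Figure D1:**
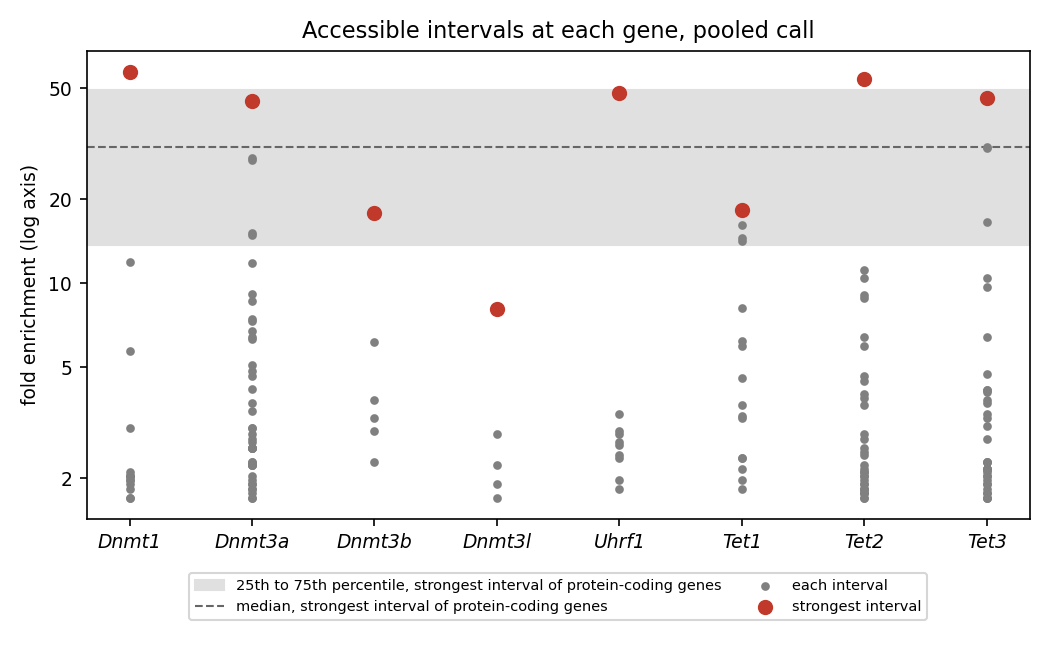
Fold enrichment (log axis) of every accessible interval at each of the 8 genes in the pooled peak call, with the strongest interval of each gene in red. The shaded band runs from the 25th to the 75th percentile of the strongest interval over 18102 protein-coding genes (13.7-fold to 49.2-fold). The dashed line is their median (30.8-fold). Dnmt3l, whose red point is the interval at the start of Aire, lies below the band, and Dnmt1 and Tet2 lie above it.

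The maintenance genes each had a single dominant promoter interval. This was not particular to them, as the promoter interval of Tet2 was 4.81 times above its next. Dnmt1, the enzyme that copies methylation after replication, lies on the minus strand of chromosome 9 (20817945 to 20871184). Its strongest interval, chr9:20861859-20865036, was 3178 bp wide with 5 summits, and its highest summit lay in exon 1, 32 bp downstream of the canonical start, with a −log10 q of 1187. The canonical start is that of the transcript marked as canonical in the annotation. This summit exceeded the strongest interval of 82.9% of protein-coding genes with an interval. The next interval lay in intron 1, 9.4 kb downstream (chr9:20854246-20858162), at 11.9-fold, which put the promoter 4.80 times above it. A further interval in intron 27 reached 5.70-fold. The remaining 11 intervals lay between 1.70-fold and 3.01-fold. Oocytes are known to make a shorter DNMT1 from a start further upstream. In the annotation Dnmt1-202, with 1501 codons against 1627 for the longest form, starts 6.9 kb upstream, and the interval nearest to that start was 1824 bp away.

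Uhrf1, whose protein recognizes CG sites methylated on the old strand and recruits DNMT1, lies on the plus strand of chromosome 17 (56610275 to 56630489). An interval of 9658 bp with 25 summits (chr17:56608726-56618383) covered its promoter and the start of the gene, at 48.0-fold and a −log10 q of 940.1. Its highest summit lay in intron 1, 927 bp downstream of the canonical start and inside another group of starts, from 56610964 to 56611407, that 21 transcripts share. The nearest of these starts was 3 bp from the summit. All 21 transcripts include the first coding exon. The other 9 intervals of Uhrf1 lay between 1.83-fold and 3.40-fold, so that the promoter was 14.1 times above the next, the widest gap at any of the 8 genes. At 9658 bp this interval was also the widest of those at the canonical start of the 8 genes.

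The de novo methyltransferase genes differed from each other in the number and strength of their intervals. Dnmt3a, which encodes the main enzyme of this kind in somatic cells, lies on the plus strand of chromosome 12 (3856007 to 3964443). It had 44 intervals that together covered 76.9% of its region, more than at 90.4% of protein-coding genes, and 14 of them reached 5-fold. The promoter interval (chr12:3854056-3862073) was 8018 bp wide with 18 summits, and its highest summit, at −566 bp relative to the canonical start, reached 45.0-fold with a −log10 q of 864. The start of Gm60243, a neighbouring gene, lies in the same interval, 1879 bp from the summit.

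Inside Dnmt3a, the strongest intervals lay 49 to 81 kb downstream of the canonical start. An interval of 10944 bp with 29 summits in intron 4 (chr12:3913839-3924782) reached 28.1-fold, with its summit 644 bp downstream of the start of the incomplete transcript Dnmt3a-210, and another in intron 3 (chr12:3902510-3906935) reached 27.7-fold. Between them, chr12:3909259-3913581 reached 15.2-fold and holds the start of the antisense gene Dnmt3aos, 429 bp from its summit. An interval in intron 6 (chr12:3933365-3938711) reached 14.9-fold. A further 9 intervals in introns 1, 2, 3 and 6 reached from 5.11-fold to 11.9-fold, and the remaining 30 of the gene lay between 1.70-fold and 4.84-fold. Of the 9, an interval in intron 1 (chr12:3881221-3888467) reached 9.17-fold and holds the start of Dnmt3a-220, 27.7 kb downstream of the canonical start. Its summit lay 692 bp upstream of that start, and Dnmt3a-220 encodes the full 908 codons.

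A known short form, DNMT3A2, lacks the N-terminal part of the protein and is made from a promoter inside the gene, mainly in embryonic stem cells and germ cells. The transcript Dnmt3a-204 starts 84.8 kb downstream of the canonical start and encodes 689 codons against 908 for the full form, as such a form would. The highest summit within 1 kb of its start reached 6.74-fold, 774 bp downstream of it, against 45.0-fold at the main promoter. Its upstream sequence, printed above, held 7 CG pairs in 120 bases.

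Dnmt3b, the other catalytic de novo enzyme, lies on the plus strand of chromosome 2 (153490861 to 153529650) and had 6 intervals covering 11.7% of its region. The promoter interval (chr2:153490671-153493226) reached 17.9-fold with a −log10 q of 237, and its summit lay in exon 1, 79 bp downstream of the canonical start. It also holds the starts of the antisense gene Dnmt3bos and of Gm75128, 268 bp from the summit at the nearest, and cuts there cannot be assigned to a gene. An interval of 299 bp in intron 7 (chr2:153510768-153511066) reached 6.15-fold, and the other 4 lay between 2.29-fold and 3.80-fold. The strongest interval of 30.7% of protein-coding genes was below that of Dnmt3b.

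Dnmt3l, the cofactor without catalytic activity, was the only gene of the 8 whose strongest interval belonged to a neighbour's start. It lies on the plus strand of chromosome 10 (77877781 to 77899456). Its strongest interval (chr10:77878716-77879916) had 1 summit of 8.05-fold, 12 bp from the start of Aire, which encodes a transcriptional regulator of the thymus and is transcribed from the other strand. The nearest start of Dnmt3l was 595 bp from the edge of this interval, and no summit lay within 1 kb of it. The group of starts that holds the canonical start, shared by 10 transcripts, had no interval within 1 kb. The nearest interval was 4472 bp from the canonical start and 4380 bp from the nearest start of the group. The 4 other intervals of Dnmt3l lay between 1.70-fold and 2.88-fold.

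The TET genes differed in which of their starts were accessible. Tet2, which encodes a TET enzyme without a CXXC DNA-binding domain of its own, lies on the minus strand of chromosome 3 (133169436 to 133250900) and had 34 intervals. The promoter interval (chr3:133248394-133253410) was 5017 bp wide with 15 summits and reached 53.8-fold with a −log10 q of 1094. Its summit lay in exon 1, 615 bp downstream of the canonical start, and the start of the neighbouring Gm42567 lay 689 bp from it. All of the 6 further intervals that reached 5-fold lay in intron 1, between 2.8 and 28.7 kb downstream of the canonical start, at 11.2-, 10.5-, 9.10-, 8.84-, 6.42- and 5.96-fold. Transcripts with the same coding length of 1920 codons also start 32.2 and 38.3 kb downstream, and the summits within 1 kb of those starts reached 2.88-fold and 2.42-fold.

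Tet3, the TET gene best known for demethylation of the paternal genome in the zygote and also used in adult tissues, lies on the minus strand of chromosome 6 (83339355 to 83436066). Here both promoters of complete coding transcripts were accessible. The incomplete transcript Tet3-204 starts 2.7 kb upstream of the canonical start, inside an interval (chr6:83435952-83437863) of 4.71-fold. The highest summit within 1 kb of that start reached 3.80-fold. The interval at the canonical start (chr6:83429645-83435747), where the form of 1803 codons begins, was 6103 bp wide with 16 summits and reached 30.6-fold, 206 bp upstream of the start. The interval at the start 14.7 kb downstream (chr6:83415407-83424633), where a shorter form of 1668 codons begins, was 9227 bp wide with 21 summits and reached 46.3-fold with a −log10 q of 896. The full form carries a CXXC domain near its N terminus, and shorter forms that lack it are known.

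Each Tet3 promoter interval also held the start of another gene, Gm67132 at the canonical promoter and B230319C09Rik at the downstream one. The start of B230319C09Rik was 107 bp from the downstream summit, while that of Gm67132 was 982 bp from the upstream summit. The cuts at these summits cannot be divided between the neighbouring starts. Inside the gene, intron 3 held the strongest interval away from any start at the 8 genes (chr6:83398455-83401244), which reached 30.9-fold, 33.9 kb downstream of the canonical start. This was as high as the 30.6-fold of the canonical promoter itself, although no error is available for either. Further intervals in intron 3 reached 16.6-, 10.5-, 9.69- and 6.42-fold, and that of 10.5-fold also overlapped 5430434F05Rik.

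Tet1, the TET gene best known from embryonic stem cells and germ cells, lies on the minus strand of chromosome 10 (62640349 to 62744775) and had 16 intervals covering 14.0% of its region. No interval lay within 1 kb of its canonical start, and the nearest was 3906 bp away. That start is also the first coding base of the transcript: 0 exonic bases precede the coding sequence in the annotation, against 137 to 992 bases at the other 7 genes. Transcripts from 4 start groups further upstream splice into the exon that holds this base. Of these upstream groups, that 7.5 kb upstream, shared by Tet1-207 and Tet1-210, held the strongest interval of the gene (chr10:62721345-62723599) at 18.3-fold, with a −log10 q of 244. The groups 13.0, 19.1 and 29.0 kb upstream had no interval within 1 kb, among them the start of Tet1-206, whose coding sequence has 2039 codons against 2007 for the canonical transcript. Tet1-207 and Tet1-210 are incomplete in the annotation and carry at most 47 codons.

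A shorter TET1 form that lacks the N-terminal part is known from differentiated cells and starts inside the gene. The transcript Tet1-202, which has no coding sequence in the annotation, starts in intron 1, 14.7 kb downstream of the canonical start. An interval there (chr10:62700927-62702914) reached 16.2-fold, with its summit 153 bp upstream of that start. The strongest interval of Tet1 was 1.125 times above this value, the narrowest gap between the first and the next interval at any of the 8 genes. Intron 2 held intervals of 14.5-, 14.1- and 6.22-fold and intron 5 held another of 8.12-fold, and an interval 16.9 kb upstream reached 5.96-fold.

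**Figure D2:**
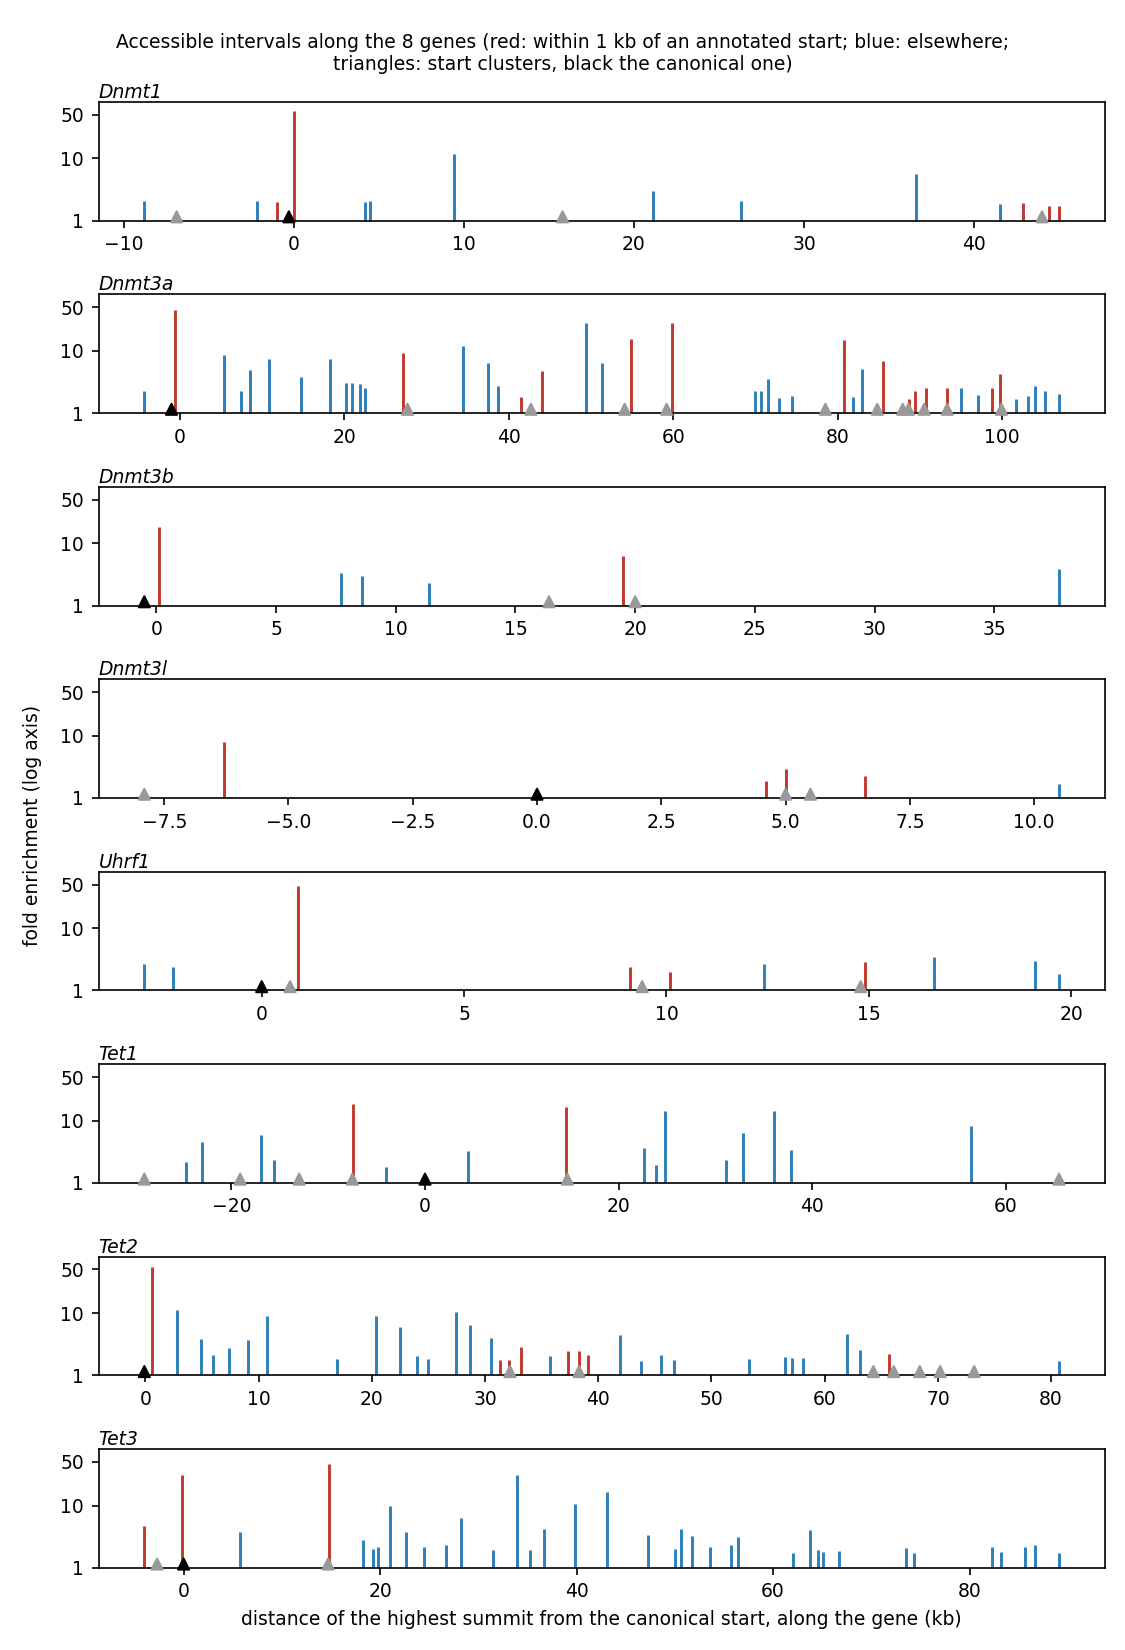
Fold enrichment (vertical line, log axis) of each accessible interval against the distance of its highest summit from the canonical start in kb, along the direction of each gene. Red lines are intervals within 1 kb of an annotated start of the gene and blue lines the others. Triangles mark groups of starts, the canonical one in black. Dnmt1, Uhrf1 and Tet2 have a single line well above their others, while Dnmt3a, Tet1 and Tet3 have several tall lines.

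Starts of the same gene less than 500 bp apart were joined into start groups, which gave 45 over the 8 genes. An interval lay within 1 kb of 32 of these groups, and over all protein-coding genes the share was 65.9% of 56160. Of the 30 groups with protein-coding transcripts, 22 had an interval, and the share of such groups over all genes was not computed. All 8 genes had an interval within 1 kb of at least 1 start, against 77.9% of protein-coding genes. For the canonical start the count was 6 of 8, without Dnmt3l and Tet1, against 75.8%. In 8 of 8 genes the strongest interval lay within 1 kb of a start, against 77.1% of protein-coding genes with an interval, and for Dnmt3l this was the interval at the start of Aire. With 8 genes, the counts that have a share beside them are close to it, and none of these counts is a result about the 8 genes.

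**Figure D3:**
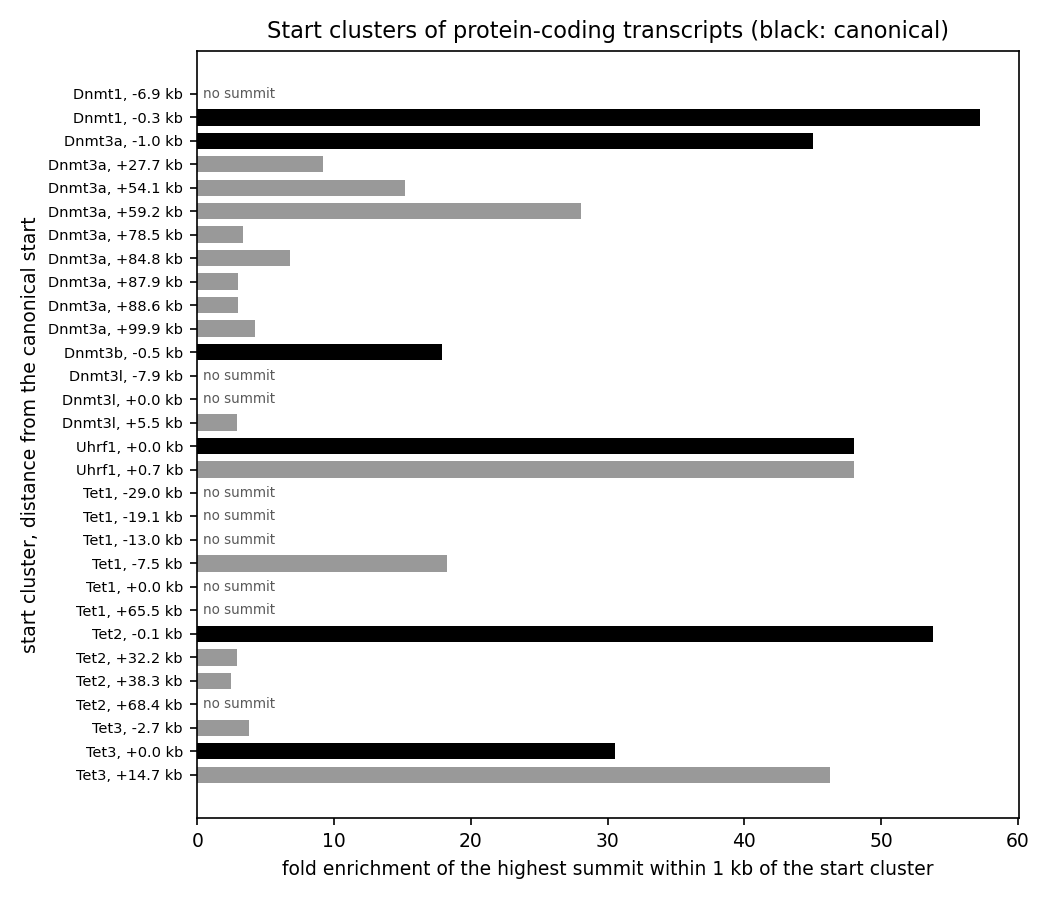
Fold enrichment of the highest summit within 1 kb of each of the 30 groups of protein-coding starts, labelled by gene and by distance in kb from the canonical start, with the group that holds the canonical start in black. Tet1 and Dnmt3l have no summit at the canonical start, and at Tet3 the start 14.7 kb downstream (46.3-fold) lies above the canonical one (30.6-fold).

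Sequence around the starts was described by the observed over expected CpG ratio, which is low where CG pairs have been lost and high in CpG islands. In the 500 bp on either side of the canonical start the ratio was 0.960 at Dnmt3a, 0.882 at Tet2, 0.820 at Tet3, 0.813 at Dnmt3b, 0.631 at Tet1, 0.593 at Dnmt1, 0.544 at Uhrf1 and 0.287 at Dnmt3l. Starts with a ratio of at least 0.6 and a GC content of at least 50% were called CpG-rich, which took Dnmt3a, Dnmt3b, Tet2 and Tet3. Tet1 fell outside by its GC content of 45.4%, and Dnmt1 by its ratio, which was just below the limit and came to 0.650, above it, within 250 bp on either side of the start. All 4 CpG-rich starts had an interval within 1 kb, as did 99.0% of such starts over all protein-coding genes. Of the 4 others, Dnmt1 and Uhrf1 had an interval and Dnmt3l and Tet1 did not, against 56.1% of such starts overall. At Uhrf1 the ratio was 0.854 around the first start of the group under its summit, 0.7 kb downstream of the canonical start.

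The strong intervals at starts and those away from starts differed in CpG content at their summits. Among the 42 intervals of at least 5-fold, 16 lay within 1 kb of a start and 26 did not. Over all intervals of that strength, 17988 lay within 1 kb of a protein-coding start and 50582 did not. The whole list also covers DNA outside genes, so the 2 splits are not alike in kind. In the 201 bp around the summit, the median CpG ratio was 0.585 over the 16 intervals at starts and 0.146 over the 26 others. Starts here are those of all annotated transcripts, incomplete and non-coding ones included, and a summit can lie further off than its interval. The summit of the 14.9-fold interval in intron 6 of Dnmt3a, with a ratio of 0, lay 2324 bp from the nearest start. A ratio of at least 0.6 was reached by 8 of the 16 and by 0 of the 26, whose highest was 0.352. Those 8 were the promoter summits of Dnmt1, Dnmt3a, Dnmt3b, Uhrf1 and Tet2, both promoter summits of Tet3, and the summit at the Aire start. Over all intervals of at least 5-fold the medians were 0.693 within 1 kb of a protein-coding start and 0.208 elsewhere. A ratio of at least 0.6 was reached by 57.9% of the former and 4.41% of the latter. A like contrast was thus present in the whole list, and the counts of 8 and 0 are not a result about the 8 genes. Over all 166 intervals the medians were closer, at 0.237 for the 42 at starts and 0.169 for the 124 others, and under 5-fold they were 0.197 and 0.178. The 16 intervals at starts had a median of 18.1-fold and a median width of 4854 bp, against 8.74-fold and 1992 bp for the 26 others.

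**Figure D4:**
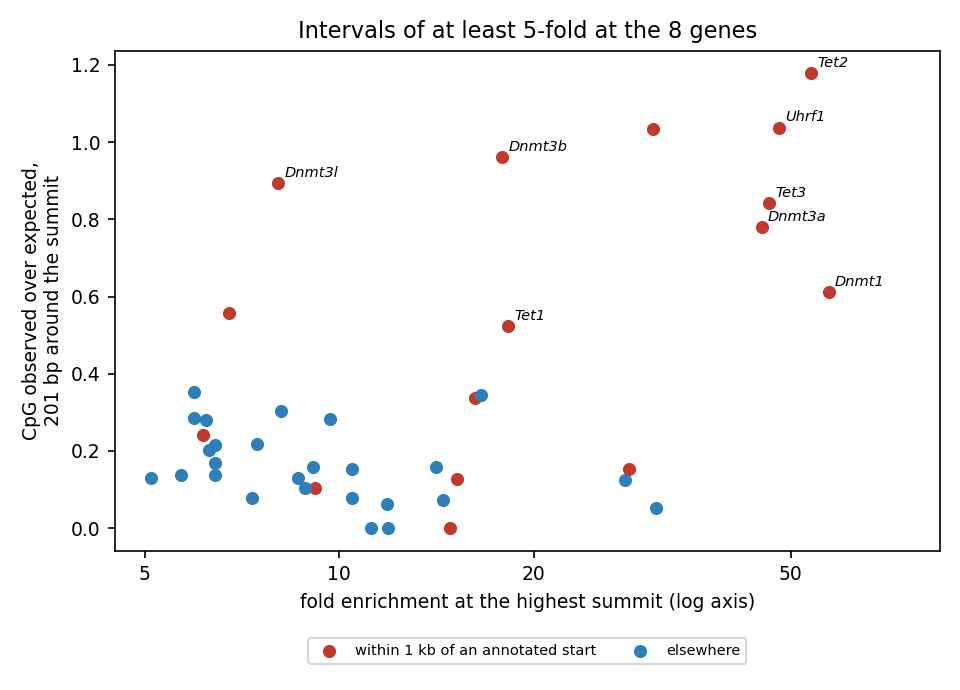
Observed over expected CpG ratio in the 201 bp around the highest summit against fold enrichment (log axis) for the 42 intervals of at least 5-fold at the 8 genes, in red within 1 kb of an annotated start of the gene and in blue elsewhere, with the strongest interval of each gene named. The blue points stay at or below 0.352, and 8 red points lie above 0.6, 1 of which, named Dnmt3l, lies at the start of Aire.

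Considering all 166 intervals, 42 lay within 1 kb of a start and 124 did not. Over the whole list this split was not computed. The summit lay in an intron of the canonical transcript in 125 intervals, 34 of these in intron 1. Summits fell in an exon in 24 intervals, upstream of the canonical start in 16 and downstream of the canonical transcript in 1. The median was 2.59-fold, against 2.55-fold over all 279569 intervals, and 25.3% reached 5-fold against 24.5%. The intervals were wider than the whole list, with a median of 605.5 bp against 434 bp.

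Short words known from promoter and enhancer factors were searched on both strands, as exact matches that are a description of the letters only. In the window from 250 bases upstream to 50 bases downstream of the canonical start, the GC box GGGCGG, bound by SP factors, occurred at 7 of the 8 genes, all but Dnmt1, and at 42.5% of all protein-coding promoters. The E-box CACGTG occurred at Dnmt3l, Tet2 and Tet3, against 7.82% of promoters, and the CCAAT box at Dnmt3b, Uhrf1 and Tet1, against 39.9%. The NRF1 word GCGCATGC occurred at Dnmt1 alone of the 8, against 3.69%, and the CTCF core AGGGGGCG at Dnmt3b alone, against 7.49%. The latter word overlaps the GC box where a G follows it. The words for ETS (CCGGAAG), E2F (TTTGGCGC, TTTCGCGC or TTTCCCGC), the TATA box (TATAAA) and CRE (TGACGTCA) occurred at none of these 8 windows, and neither did those for AP-1 (TGANTCA), HNF1 (GTTAAT) or HNF4 (CAAAGTCCA).

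At the summits, the 201 bp windows of the 16 intervals of at least 5-fold at starts held the GC box in 8 and the CTCF core in 5. Among all intervals of that strength near protein-coding starts these words occurred in 49.4% and 7.90%. The 5 with the CTCF core were the strongest intervals of Dnmt1, Dnmt3b, Tet2 and Tet3 and the interval at the Aire start. Of the 26 summits away from starts, 10 held CCAAT, 5 held the AP-1 word and 3 the GC box, against 22.4%, 20.1% and 7.38% of all intervals of that strength elsewhere. The 5 with the AP-1 word lay in intron 1 of Dnmt1, introns 1 and 2 of Dnmt3a, and intron 3 of Tet3 in 2 intervals. The summit in intron 5 of Tet1 was the only one of the 42 to hold the words of HNF4 and HNF1, factors of the proximal tubule. Among all intervals of that strength elsewhere these words occurred in 1.78% and 12.7%. The Uhrf1 summit was the only one with an E2F word, against 1.67% of all intervals of that strength near protein-coding starts. E2F factors drive genes of DNA replication. Such single matches are not a result about the 8 genes.

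A list of 43 further genes that act with these enzymes was examined in the same way. Of these, 42 had an interval within 1 kb of a start, against 77.9% of protein-coding genes, with a median of 40.5-fold. Their strongest intervals had a median of 40.3-fold, against 30.8-fold over protein-coding genes with an interval. Most of the 43 have a CpG-rich canonical start, as do 10022 of the 21757 protein-coding genes. Over all protein-coding genes 99.0% of CpG-rich canonical starts had an interval, against 56.1% of the others. Whether the list differs from genes of like CpG content was not tested. The gene without an interval at a start was Dnmt3c, a rodent copy of Dnmt3b that acts in male germ cells, whose strongest interval reached 7.92-fold. Beside it, Trdmt1, a related enzyme that methylates tRNA, reached 49.6-fold.

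Among the proteins that read methylated CG pairs, the 7 genes ran from 15.5-fold at Zbtb4 to 82.2-fold at Mbd3, a subunit of the NuRD complex. The 6 partners of maintenance ran from 15.3-fold at Cdca7, which works with the remodeller HELLS, to 68.9-fold at Pcna, the replication clamp. The 6 genes listed under targeting and heterochromatin ran from 12.9-fold at Zfp57, which protects imprinted regions, to 75.7-fold at Trim28, its corepressor. Over the 11 genes for repair of oxidized bases and for TET partners, values ran from 13.2-fold at Cxxc4, a binding partner of TET2, to 92.6-fold at Gadd45a, a stress-response gene.

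The genes that supply the substrates of the 2 reactions covered the widest range. In the methyl donor cycle, Mat1a, the liver form of methionine adenosyltransferase, reached 2.68-fold, the lowest of the 42, while Mat2a, the form of most other tissues, reached 48.2-fold. The highest there was Mtr, methionine synthase, at 83.0-fold. The 3 genes of alpha-ketoglutarate and 2-hydroxyglutarate metabolism lay close together, from 55.1-fold at Idh2, the mitochondrial isocitrate dehydrogenase, to 67.6-fold at Idh1, the cytosolic form. The cytidine deaminase gene Apobec1 reached 29.3-fold. Set beside this list, Tet1, Dnmt3b and Dnmt3l, with 18.3-, 17.9- and 8.05-fold, were below the 40.5-fold median of the 42. For Dnmt3l this is the value of the interval at the start of Aire. Dnmt1, Tet2, Uhrf1, Tet3 and Dnmt3a, from 45.0- to 57.2-fold, were above that median.

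**Figure D5:**
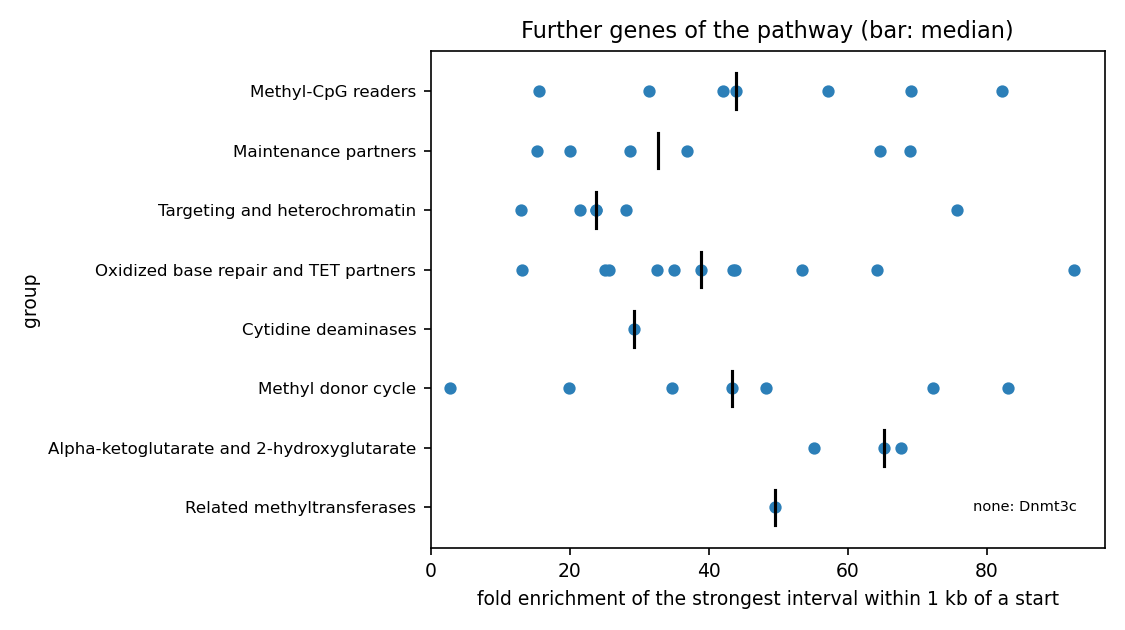
Fold enrichment of the strongest interval within 1 kb of a start for 43 further genes of DNA methylation, its removal and its substrates, 1 point per gene in 8 groups, with a bar at the median of each group. The genes of alpha-ketoglutarate and 2-hydroxyglutarate metabolism lie between 55.1-fold and 67.6-fold, Mat1a in the methyl donor cycle lies at 2.68-fold, and Dnmt3c has no interval at a start.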

How the data were processed

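ATAC-seq libraries of mouse kidney cortex were mapped to 3 WT and 3 Acly cKO samples from their labels. By the methods and the submitters' processing notes, the authors ran fastp for trimming and Bowtie2 2.3.4.3 for alignment to mm39, kept unique alignments without duplicates, and used MACS3 3.0.0 for peak calling, at a q limit of 0.05 with an extension of 200 bp, a shift written as 100 bp and a call of each summit. BEDTools 2.29.1 removed blacklisted regions and non-standard chromosomes. The deposited peak list holds the authors' fold enrichment, a linear ratio over the background at each summit, and their −log10 q. It also holds a score that the authors' caller derived from it. A second deposited file lists the unfiltered summits with the same −log10 q, and no summit at the 8 genes was lost by the filtering. Which libraries entered the pool is not stated in the files.

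Summit rows with identical coordinates were taken as a single interval with the fold and q of the summit of highest −log10 q. Positions refer to GRCm39 and are counted from 1. Starts were taken from all transcripts of GENCODE M39, over 21757 protein-coding genes. Intervals and starts were called near each other within 1 kb. The CpG ratio is the number of CG pairs times the window length, divided by the product of the C and G counts. The 12 motif words, the list of 43 pathway genes and the marker lists were written by hand. Of the pathway genes first listed, 2 are not reported here, for a reason unrelated to their values, and all counts are over the genes reported. The 8 genes and all lists were chosen with earlier results of these data known. The genes and intervals named are the 8 genes with their strongest interval, some of their starts and their intervals of at least 5-fold. In each group of the pathway list the highest, the lowest and any gene without an interval at a start were named. Mat2a, Trdmt1 and the marker genes were named after their values were seen. The code was tested on simulated data, and every planted interval, placement and motif was recovered. Python 3.11.15 was used with numpy 2.4.6, pandas 2.3.3, pysam 0.24.0 and matplotlib 3.10.9.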

Additional observations from a re-analysis of the deposited data

How the results depend on the processing

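The number of intervals at the 8 genes was 166 as reported, 663 when summits inside the gene regions were counted in their place, 42 with at least 5-fold and 92 with a −log10 q of at least 5. Of the 45 start groups, 32 had an interval and 20 had one of at least 5-fold, a count with no share over all genes computed. Of 25 alternative settings for such counts, these 4 moved the count by over 1.5 times and 21 did not. A reach of 10 kb upstream gave 6 genes whose strongest interval lay at one of their own starts, in place of 8, without Uhrf1 and Tet1, and a limit of 300 bp from the start gave 7, without Dnmt3l. Taking the highest fold in place of the highest q changed none of the 8 strongest folds. In a window of 250 bp on either side of the canonical start the CpG ratio moved by over 10% at 3 genes. It went from 0.287 to 0.430 at Dnmt3l, from 0.631 to 0.834 at Tet1 and from 0.882 to 0.756 at Tet2, and at Dnmt1 it passed the limit of 0.6 for a CpG-rich start, from 0.593 to 0.650. No paired analysis was possible because no column belongs to a library, and leaving out a library could not be done for the same reason. Depth per library is unknown, so a missing interval means that none was called in the pool, not that the site was closed.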
